A study of Mus musculus with 8 samples.

Results

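The p53 pathway and the machinery of apoptosis were described in macrophages of mouse mammary tumours labelled as deleted for E2f3, which encodes a transcription factor, or as controls. The set was a list of 36 named genes. Each gene was represented by the probe set, annotated with that 1 symbol, that had the highest mean over the 8 arrays. Of the 36 genes, 34 had such a probe set and 31 passed a filter on mean signal, among 18193 genes with a probe set and 10916 that were tested. No probe set was named for Trp53 or Bax here, and Gadd45a, Bbc3 and Pmaip1 lay under the filter.

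Gene expression was measured on Affymetrix arrays in cells sorted for F4/80, a macrophage surface protein, from mammary tumours of mice aged 80 days. The background strain was FVB, and every mouse carried PyMT, a viral oncogene that gives mammary tumours. The E2f3-deleted group (PyMT;Lys Cre:E2f3 f/f, 4 arrays, replicates A, E, F and H) had E2f3 alleles flanked by recombination sites together with Lys Cre, a recombinase expressed under control of the lysozyme locus and therefore in myeloid cells. The control group (PyMT;E2f3 f/f, 4 arrays, replicates B, C, D and G) had the same alleles and no Cre, so that effects of Cre itself and of the deletion cannot be told apart. Whether the arrays came from separate animals is not stated, so each p-value refers to variation among these 8 samples, some of which could be technical.

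p53 is a transcription factor that is held low by the ubiquitin ligase MDM2 and its relative MDM4, and that after DNA damage switches on genes of cell cycle arrest, repair and cell death. Many of its targets act on mitochondria, where pro-apoptotic members of the BCL2 family open the outer membrane and anti-apoptotic members prevent this. Released cytochrome c assembles APAF1 and caspase-9, while death receptors act through FADD and caspase-8, and inhibitor of apoptosis proteins restrain the caspases. E2F proteins, E2F1 above all, can also switch on genes of this machinery, Apaf1 and the BH3-only genes among them.

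The E2f3 transcript had log2 signals of 7.65, 7.54, 7.53 and 7.79 on E2f3-deleted arrays A, E, F and H, and of 7.66, 7.63, 7.83 and 7.58 on control arrays B, C, D and G. Whether its probes lie inside the deleted segment is unknown, so this does not check the labels. The macrophage genes Adgre1 and Csf1r had mean log2 signals of 12.69 and 14.33 in E2f3-deleted cells, against 12.88 and 14.33 in control cells. The whole macrophage list of 15 genes had 14 (93.3%) with a difference below 0, against 58.7% of all genes tested. Markers of other cells were also present. Their per-array medians, relative to the control mean, ran from 0.024 to 2.01 in E2f3-deleted arrays and from −0.45 to 0.44 in controls for endothelium. They ran from −0.25 to 0.83 against −0.35 to 0.75 for epithelium, and from −0.35 to 4.18 against −0.51 to 0.29 for mast cells. These medians cover markers that passed the filter. Mcpt4, Tpsb2, Tpsab1 and Ms4a2 of mast cells passed only through the E2f3-deleted group (control means 5.56 to 5.97, filter 5.998). So did the endothelial markers Tie1, Emcn, Erg, Robo4 and Sox18. Fcer1a and Hdc, left out, were 3.75 and 5.59 on replicate H, inside the range of the other E2f3-deleted arrays. Cpa3 and Cma1 were 12.88 and 11.62 on replicate H, above all other arrays. The value of 4.18 was that of replicate H, which also had the highest fibroblast median, 1.45, and the lowest mean correlation with its own group, 0.983.

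The deleted factor and p53 both bind short DNA motifs, so the RefSeq promoter windows (build GRCm38.p6, 250 bases before to 50 after each annotated start) were searched on both strands. A window was held for 32 of the 36 genes, and Trp53inp1, Zmat3, Perp and Pmaip1 had none in the table used. The 8-letter E2F motif (TTTCCCGC, TTTCGCGC, TTTGCCGC or TTTGGCGC) lay in 2 of the 45 windows of these genes, 1 of Bcl2l1 and 1 of Fadd, and in 2.26% of all 32851 windows. The 10-base p53 decamer, of which a full p53 site holds a pair, lay in 11 of the 45 windows of these genes and in 8.36% of all windows. Among the 11, overlapping windows of Aen held the same site. By gene the decamer was found for 10 of the 32 with a window (31.2%), against 9.55% of all genes. No window of these genes held a pair of decamers within 13 bases of each other, and 0.0731% of all windows did. Several genes were listed because p53 is known to act on them, so the share of decamers is a description of the list, and a match is a match of letters only.

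The 250 bases before the start are shown for 4 genes, with the decamer of Mdm2 and Ccng1 and the E2F motif of Bcl2l1 and Fadd in capitals. Mdm2 and Bcl2l1 are the genes with the smallest p below, and Ccng1 and Fadd are given to compare with them. All 4 genes lie on the minus strand and are printed in their own direction, from chr10:117710759-117711008 (Mdm2), chr11:40755287-40755536 (Ccng1), chr2:152830718-152830967 (Bcl2l1, the window of 1 of its 3 annotated starts) and chr7:144582442-144582691 (Fadd). The E2F letters stand on the opposite strand in both windows and so are read here as the reverse complement.
Mdm2: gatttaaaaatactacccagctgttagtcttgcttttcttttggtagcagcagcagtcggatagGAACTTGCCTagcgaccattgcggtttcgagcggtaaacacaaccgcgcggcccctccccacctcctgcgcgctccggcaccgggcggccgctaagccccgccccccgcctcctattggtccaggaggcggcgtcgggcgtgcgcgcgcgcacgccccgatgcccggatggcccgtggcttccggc
Ccng1: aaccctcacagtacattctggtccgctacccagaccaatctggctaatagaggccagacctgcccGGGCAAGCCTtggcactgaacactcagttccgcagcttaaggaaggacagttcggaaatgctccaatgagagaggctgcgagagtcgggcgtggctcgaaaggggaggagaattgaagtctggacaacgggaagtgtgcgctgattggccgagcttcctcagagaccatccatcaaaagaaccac
Bcl2l1: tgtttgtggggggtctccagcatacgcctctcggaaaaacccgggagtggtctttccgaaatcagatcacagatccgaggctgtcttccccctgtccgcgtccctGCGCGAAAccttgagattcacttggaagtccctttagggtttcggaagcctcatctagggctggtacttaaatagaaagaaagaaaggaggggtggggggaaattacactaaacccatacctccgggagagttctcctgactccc
Fadd: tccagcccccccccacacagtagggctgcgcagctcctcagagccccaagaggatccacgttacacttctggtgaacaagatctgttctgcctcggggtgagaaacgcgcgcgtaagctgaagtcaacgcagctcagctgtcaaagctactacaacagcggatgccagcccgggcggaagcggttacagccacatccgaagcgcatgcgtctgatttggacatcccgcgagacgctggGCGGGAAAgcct

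The p53 decamers of all genes in the list that hold one are shown with 10 bases on each side, in the gene's own direction and with the decamer in capitals. Counted from the start, their first bases lie from position −231 (Polk) to position 10 (Aen and Birc2). They are at chr11:69580274-69580303 (Trp53, plus strand), chr10:117710925-117710954 (Mdm2, minus strand), chr11:40755452-40755481 (Ccng1, minus strand), chr6:67037428-67037457 (Gadd45a, minus strand), chr10:41887256-41887285 (Sesn1, plus strand), chr13:96519399-96519428 (Polk, minus strand), chr7:78895927-78895956 (Aen, plus strand), chr9:36797325-36797354 (Ei24, minus strand), chr7:45467080-45467109 (Bax, minus strand), chr9:7836777-7836806 (Birc2, minus strand).
Trp53: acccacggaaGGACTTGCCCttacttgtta
Mdm2: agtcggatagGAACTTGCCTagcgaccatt
Ccng1: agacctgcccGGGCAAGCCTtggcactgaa
Gadd45a: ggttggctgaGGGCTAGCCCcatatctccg
Sesn1: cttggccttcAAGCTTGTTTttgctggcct
Polk: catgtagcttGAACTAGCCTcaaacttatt
Aen: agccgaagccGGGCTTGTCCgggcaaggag
Ei24: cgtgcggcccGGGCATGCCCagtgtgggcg
Bax: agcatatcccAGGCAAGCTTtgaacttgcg
Birc2: cagtcaacccAGGCTAGTCTcgaatttgcg

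The 7-letter core of the E2F motif, which leaves off the first T, lay in 7 of the 45 windows of these genes and in 9.57% of all windows. By gene it was found for 7 of the 32 with a window (21.9%), against 10.9% of all genes. It is shown the same way, and in every one of the 7 it is on the strand opposite to the gene. The stretches are at chr10:41887300-41887326 (Sesn1, plus strand), chr7:45467066-45467092 (Bax, minus strand), chr7:16310013-16310039 (Bbc3, plus strand), chr19:6941787-6941813 (Bad, plus strand), chr2:152830846-152830872 (Bcl2l1, minus strand), chr7:144582437-144582463 (Fadd, minus strand), chr9:7836763-7836789 (Birc2, minus strand).
Sesn1: cccaaccccaGCGCCAAggggtggggc
Bax: ctttgaacttGCGGCAAttctgcttta
Bbc3: ggccaggcggGCGGGAAggaagcacct
Bad: catatgggggGCGGCAAcgacttcccc
Bcl2l1: ccgcgtccctGCGCGAAaccttgagat
Fadd: gagacgctggGCGGGAAagcctaaggt
Birc2: tctcgaatttGCGGCAAtcctcctgcc

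Across the list, differences between the groups were small. None of the 31 tested genes passed an adjusted p of 0.05 (limma, Benjamini-Hochberg over all genes tested), and none of the 10916 genes did (0% called). At an unadjusted p under 0.05 there were 2 of 31, Mdm2 and Bcl2l1, or 6.45%, against 14.2% of all genes tested. Both were lower in E2f3-deleted arrays, as were 6.9% of all genes, and no gene of the list was higher at that p, against 7.27% of all genes. Groups without any overlap of their values were seen in 1 of 31, Mdm2 (3.23%), against 8.48% of all genes tested and 4.22% in that direction. Both shares lay below those of all genes, but without E2f3-deleted replicate E 7 of 31 (22.6%) had an unadjusted p under 0.05, against 17% of all genes. When the probe sets of a gene were averaged, neither Mdm2 nor Bcl2l1 had a p under 0.05. Under that setting 2 of 32 genes did (6.25%, against 14.7% of all genes), Trp53inp1 above 0 and Casp9 below 0. Differences below 0 were found in 19 of 31 (61.3%) and in 58.7% of all genes, and above 0 in 12 of 31 and in 41.3% of all genes, with medians of −0.024 for the list and −0.028 for all genes tested. The difference was within 0.25 log2 units of 0 for 28 of the 31, and the 95% confidence interval lay inside −0.5 to 0.5 for 24 of them.

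**Figure D1:**
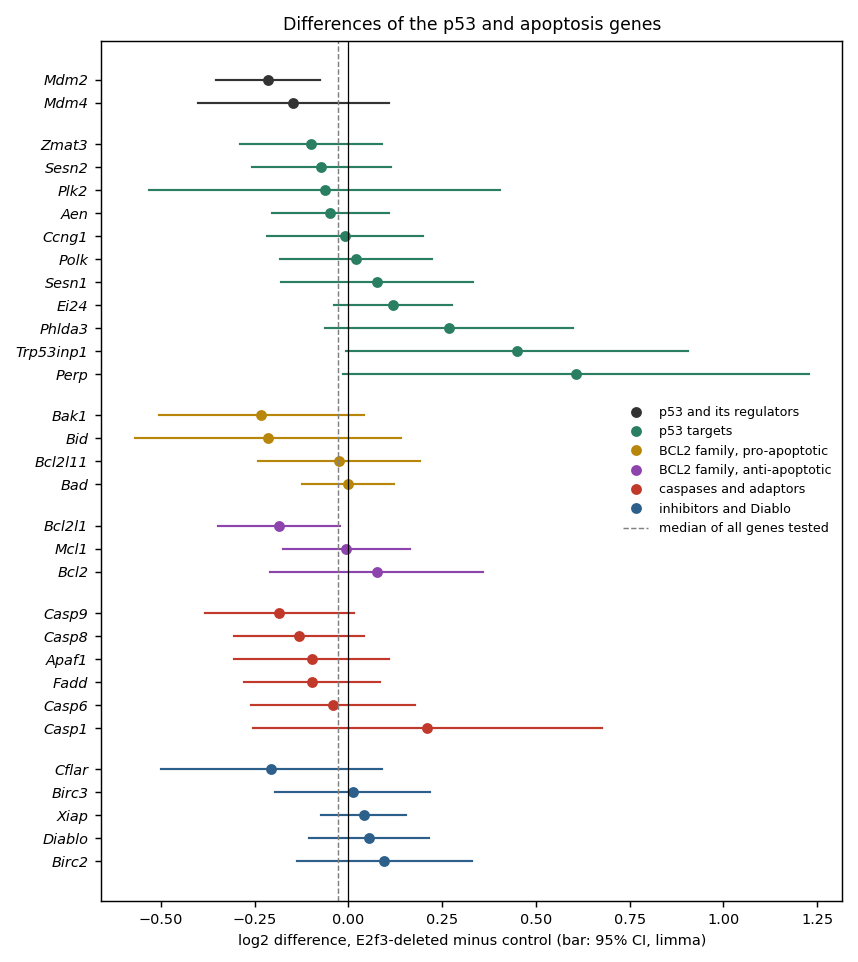
Log2 difference (E2f3-deleted minus control, x axis) of the 31 tested genes, by class and ordered by difference, with bars for the 95% confidence interval from limma. The interval lies wholly below 0 for Mdm2 and Bcl2l1, and the 2 differences farthest above 0, Perp at 0.61 and Trp53inp1 at 0.45, have intervals that reach just below 0.

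Of the regulators of p53, Mdm2 was the gene whose groups stood apart. Its log2 signal was 9.52, 9.63, 9.69 and 9.59 on E2f3-deleted arrays A, E, F and H, against 9.72, 9.83, 9.89 and 9.85 on control arrays B, C, D and G. Every E2f3-deleted array lay below every control array, with replicate F and control replicate B next to each other at the border. The difference was −0.21 (SE 0.060, a fold of 0.862), with an interval from −0.35 to −0.076, and did not pass over all genes (limma, adjusted p = 0.233). The other 2 probe sets of Mdm2 were dimmer and had differences of −0.10 and −0.13, with overlapping groups. On the same arrays the macrophage marker medians were −0.18 to −0.09 in the E2f3-deleted group and −0.062 to 0.044 in controls, with summed linear signals of 145600 to 153900 against 155600 to 167600. A sign of RNA quality moved with the groups as well: the Gapdh signal at the 3' end exceeded that at the 5' end by 1.87, 1.48, 1.59 and 1.73 log2 units on E2f3-deleted arrays A, E, F and H. On control arrays B, C, D and G it did so by 1.53, 1.47, 1.39 and 1.42, so that 3 of 4 E2f3-deleted arrays lay above every control. The part of macrophage content or RNA quality in the difference of Mdm2 was not tested. In a sorted population fewer cells of a type and less RNA per cell cannot be told apart.

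Mdm4, the relative of Mdm2 that masks the activation domain of p53, had log2 signals of 7.16, 7.04, 7.29 and 7.46 on E2f3-deleted arrays A, E, F and H, against 7.52, 7.41, 7.17 and 7.44 on control arrays B, C, D and G. Replicate H lay among the controls and control replicate D among the E2f3-deleted arrays, so the groups overlapped. The difference was −0.15 (SE 0.11, limma, adjusted p = 0.555), −0.22 without replicate H, −0.081 without replicate E and −0.031 with groups set by scan file letter. With the endothelial median as a covariate the sign turned, at 0.028. All 4 probe sets of Mdm4 had values between −0.15 and −0.094.

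The 12 targets of p53 did not share a direction. Of the 11 tested, 5 had a difference below 0 and 6 above 0, with a median of 0.021 and none at an unadjusted p under 0.05. Trp53inp1, a stress protein that acts in autophagy and cell death, had log2 signals of 10.12, 9.79, 9.81 and 10.65 on E2f3-deleted arrays A, E, F and H. In control replicates B, C, D and G it had 9.65, 9.54, 9.46 and 9.92. The groups overlapped through control replicate G, and replicate H was the highest of the 8 arrays. The difference was 0.45 (SE 0.20, limma, adjusted p = 0.358) and was 0.26 without replicate H and 0.83 with the endothelial median as a covariate.

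Perp, a desmosomal membrane protein of epithelia that p53 induces, had the difference farthest from 0 in the list. Its log2 signal was 8.36, 8.61, 8.84 and 7.96 on E2f3-deleted arrays A, E, F and H, against 7.86, 7.38, 8.51 and 7.59 on control arrays B, C, D and G. Control replicate D lay among the E2f3-deleted arrays. The difference was 0.61 (SE 0.27, a fold of 1.52; limma, adjusted p = 0.362), 0.83 without control replicate D and 0.46 without control replicate C. The epithelial marker medians were 0.31, 0.83, 0.77 and −0.25 in replicates A, E, F and H, and −0.34, −0.35, 0.75 and −0.032 on control arrays B, C, D and G. The 4 arrays with the highest Perp were the 4 with the highest epithelial medians. In the epithelial list 14 of 15 genes had a difference above 0, against 41.3% of all genes tested. The summed linear signal of the list was 26850 to 38790 in E2f3-deleted arrays and 24410 to 36150 in controls. With the epithelial median as a covariate, chosen after the values were seen, the difference of Perp was 0.30 (SE 0.15, limma, adjusted p = 0.365). It was 0.16 with the endothelial median as a covariate and 0.12 with groups set by the letter in the scan file's name, under which arrays B and F change sides. The part of epithelial or other cells in the difference of Perp was not tested.

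Phlda3, a p53 target that restrains the kinase AKT, had 8.18, 7.73, 7.94 and 8.21 on E2f3-deleted arrays A, E, F and H, against 7.41, 7.89, 7.88 and 7.798 on control arrays B, C, D and G, with a difference of 0.27 (SE 0.14, limma, adjusted p = 0.424). Replicate E lay inside the range of the controls, and without control replicate B, the lowest array, the value was 0.16. With groups set by scan file letter it was 0.0066. Ei24, an endoplasmic reticulum protein induced by p53, had a difference of 0.12. Sesn1 and Sesn2, sestrins that hold back the growth kinase mTORC1, had values of 0.076 and −0.073. The other targets lay closer together. Zmat3, a zinc finger RNA-binding protein, had −0.10, the kinase Plk2 −0.063 and the nuclease Aen −0.048. The cyclin Ccng1, which in mice is a p53 target that feeds back on MDM2, had −0.009, and the lesion-bypass polymerase Polk 0.021. Of these 7 genes, Zmat3 and both sestrins kept their sign when each array was left out in turn, as did Aen, while those of Plk2, Ccng1 and Polk changed.

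Gadd45a, a growth arrest gene that p53 induces, had a mean under the filter. It had log2 signals of 4.54, 4.26, 4.45 and 7.08 on E2f3-deleted arrays A, E, F and H, against 4.60, 4.82, 4.95 and 4.502 on control arrays B, C, D and G. Replicate H stood far above the others, and replicates E and F lay below every control. The difference among all genes without a filter was 0.36 (SE 0.58), and −0.30 (SE 0.12; limma, adjusted p = 0.382) without replicate H. Mast cell markers were highest on that same array, with a summed linear signal of 977 to 23170 in E2f3-deleted arrays and 697 to 1095 in controls, and their part in the value was not tested.

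In the BCL2 family, 6 of 7 tested genes (85.7%, against 58.7% of all genes tested) had a difference below 0, with a median of −0.024. Each of the 4 tested pro-apoptotic genes was among them. Bak1, a pore former of the mitochondrial outer membrane, had log2 signals of 7.07, 7.43, 7.17 and 6.81 on E2f3-deleted arrays A, E, F and H, against 7.33, 7.39, 7.37 and 7.33 on control arrays B, C, D and G. Replicate E was above every control and the other 3 below, and the E2f3-deleted arrays spread much more widely (SD 0.26, against 0.031 in controls). The difference was −0.23 (SE 0.12, limma, adjusted p = 0.410), −0.34 without replicate E and −0.13 without replicate H.

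Bid, the BH3-only protein that carries the signal of caspase-8 to mitochondria, had 8.11, 8.42, 8.66 and 7.96 on E2f3-deleted arrays A, E, F and H, against 8.34, 8.65, 8.60 and 8.42 on control arrays B, C, D and G. Replicates A and H lay below the controls, and replicate F was level with the highest of them. The difference was −0.22 (SE 0.15, limma, adjusted p = 0.535), −0.34 without replicate F and −0.11 without replicate H. Its 2 other probe sets had −0.20 and −0.088. Bcl2l11, which encodes BIM, had a difference of −0.024 and Bad one of −0.001, with signs that changed when single arrays were left out. The BH3-only genes Bbc3 (PUMA) and Pmaip1 (NOXA), under the filter, had −0.057 and −0.027 among all genes without a filter. Pmaip1 was highest on control replicate B, at 6.42, and from 5.63 to 6.14 on the other 7 arrays.

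Among the anti-apoptotic genes, Bcl2l1, which encodes BCL-XL, had log2 signals of 9.91, 10.03, 9.81 and 9.999 on E2f3-deleted arrays A, E, F and H, against 10.14, 9.99, 10.17 and 10.18 on control arrays B, C, D and G. Control replicate C lay among the E2f3-deleted arrays, and the other 3 controls lay above all of them. The difference was −0.19 (SE 0.071, a fold of 0.879; limma, adjusted p = 0.305), and its interval ran from −0.35 to −0.022. Leaving out each array in turn gave −0.23 to −0.14, with an unadjusted p that was no longer under 0.05 in 5 of 8 fits, and the grouping by scan file letter gave −0.018. The 3 other probe sets of Bcl2l1, all dim, had values of 0.010, −0.22 and −0.11.

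Bcl2 itself had 9.15, 9.14, 9.08 and 9.44 on E2f3-deleted arrays A, E, F and H, against 9.11, 8.87, 9.14 and 9.39 on control arrays B, C, D and G, with a difference of 0.075 (SE 0.12, limma, adjusted p = 0.793). The groups lay across each other, and the sign turned without control replicate C (−0.011). The other probe sets of Bcl2, all dimmer, had values of 0.072, −0.028, −0.11 and −0.095, so its probe sets did not share a direction. Mcl1, a short-lived survival protein, had signals of 13.37, 13.40, 13.30 and 13.12 on E2f3-deleted arrays A, E, F and H, against 13.30, 13.39, 13.25 and 13.29 on control arrays B, C, D and G. Its difference was −0.006 (SE 0.073), with an interval from −0.17 to 0.16. Of its 5 other probe sets, 4 had values between −0.060 and 0.010 and 1 had −0.22.

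**Figure D2:**
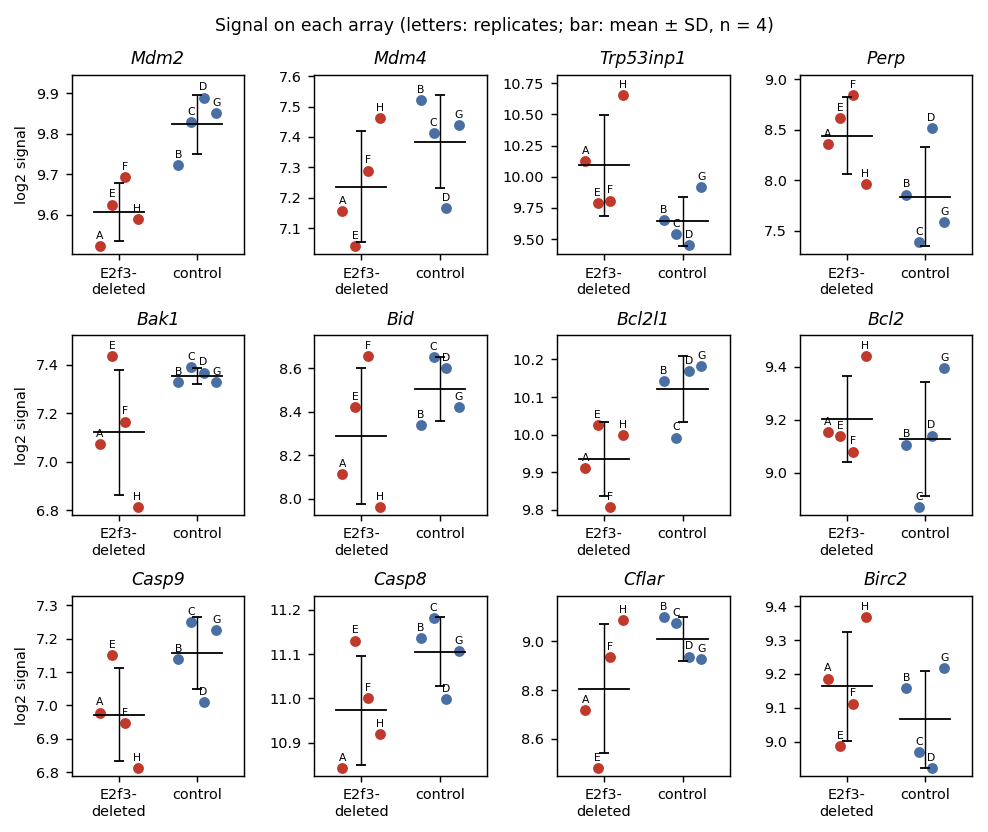
Log2 signal (y axis) on each array for 12 genes, with E2f3-deleted arrays left of control arrays, letters for replicates, and bars for the mean and SD of 4 arrays. The groups are apart in Mdm2 and overlap in the other 11, and replicate E is the highest E2f3-deleted array in Bak1, Bcl2l1, Casp9 and Casp8.

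Of the 6 caspases and adaptors, 5 (83.3%) had a difference below 0 (median −0.097), against 58.7% of all genes tested. None of the 6 reached an unadjusted p under 0.05. Casp9, the initiator of the mitochondrial pathway, had log2 signals of 6.98, 7.15, 6.95 and 6.81 on E2f3-deleted arrays A, E, F and H, against 7.14, 7.25, 7.01 and 7.23 on control arrays B, C, D and G. The groups overlapped through replicate E, which lay above control replicates B and D. The difference was −0.18 (SE 0.086, limma, adjusted p = 0.381). A dimmer probe set of Casp9 had −0.26 (limma, adjusted p = 0.462 over all probe sets) and the other one 0.042, so its probe sets did not share a direction. Casp8, the initiator at death receptors, had 10.84, 11.13, 11.00 and 10.92 on E2f3-deleted arrays A, E, F and H, against 11.14, 11.18, 11.00 and 11.11 on control arrays B, C, D and G. Replicates A and H lay below every control, and the difference was −0.13 (SE 0.075, limma, adjusted p = 0.453).

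Apaf1, the scaffold that activates caspase-9, and Fadd, the adaptor of death receptors, had differences of −0.098 (SE 0.090) and −0.097 (SE 0.079). The sign of both held with each array left out, with ranges from −0.16 to −0.021 for Apaf1 and from −0.15 to −0.045 for Fadd. Fadd was 8.13 on control replicate B and 7.92 to 7.94 on the other 3 controls, against 7.78 to 8.05 in the E2f3-deleted arrays. The executioner gene Casp6 had a value of −0.042. Casp1, the inflammatory caspase that matures interleukin-1 beta, was the gene of this class above 0. It had log2 signals of 10.80, 10.85, 10.83 and 11.73 on E2f3-deleted arrays A, E, F and H, against 10.84, 10.89, 10.71 and 10.92 on control arrays B, C, D and G. Replicate H was far above the other 7 arrays, which lay within the range from 10.71 to 10.92. The difference was 0.21 (SE 0.20), and −0.015 (SE 0.065) without replicate H, the array with the mast cell median of 4.18. The part of mast cell RNA in it was not tested.

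**Figure D3:**
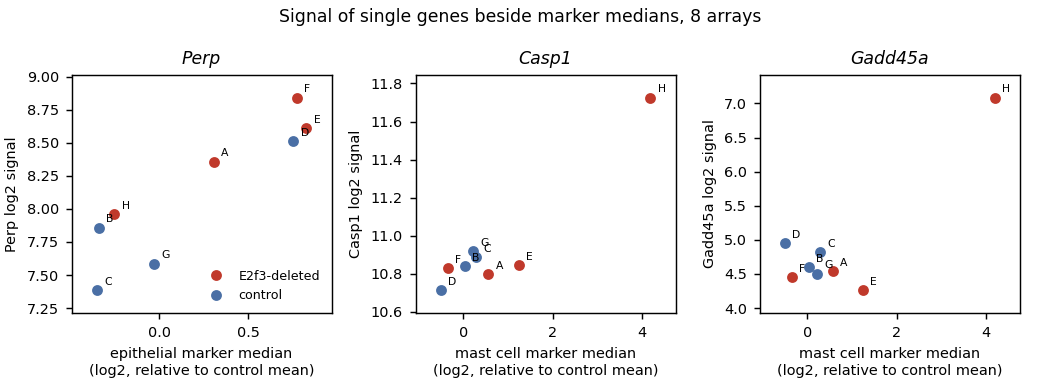
Log2 signal (y axis) of Perp against the epithelial marker median, and of Casp1 and Gadd45a against the mast cell marker median (x axes, log2 relative to the control mean), for 4 E2f3-deleted and 4 control arrays. Perp runs from 7.38 to 8.84 and is highest on the 4 arrays with the highest epithelial medians, while the order of the other arrays differs. Replicate H alone is high for Casp1 (11.73) and Gadd45a (7.08) at a mast cell median of 4.18.

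Of the class of 4 inhibitors of apoptosis and their antagonist Diablo, 4 of 5 genes had values above 0, against 41.3% of all genes tested. The median of the class was 0.041, and none of the 5 had an unadjusted p under 0.05. The gene below 0 was Cflar, which encodes the caspase-8 inhibitor FLIP. It had log2 signals of 8.72, 8.48, 8.93 and 9.09 on E2f3-deleted arrays A, E, F and H, against 9.10, 9.08, 8.94 and 8.93 on control arrays B, C, D and G. Replicates A and E lay below every control, while F and H were within their range. The difference was −0.21 (SE 0.13, limma, adjusted p = 0.486), and −0.097 without replicate E. A second probe set of Cflar had a value of 0.018.

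Birc2, which encodes the ubiquitin ligase cIAP1, had 9.19, 8.99, 9.11 and 9.37 on E2f3-deleted arrays A, E, F and H, against 9.16, 8.97, 8.92 and 9.22 on control arrays B, C, D and G. The groups overlapped throughout, with a difference of 0.096 (SE 0.10, limma, adjusted p = 0.676). Its neighbour in function Birc3 (cIAP2) had 0.011, and Diablo, the mitochondrial protein that releases caspases from these inhibitors, 0.055. The dimmer probe set of each went the other way, at −0.18 for Birc3 and −0.081 for Diablo. Xiap, which binds and blocks caspases directly, had 10.06, 9.98, 9.96 and 10.04 on E2f3-deleted arrays A, E, F and H, against 9.98, 9.99, 9.91 and 9.999 on control arrays B, C, D and G. Its difference was 0.041 (SE 0.049), with an interval from −0.072 to 0.15.

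The brightest probe set of a gene was not always a guide to the others. The 34 genes had 88 probe sets, of which 62 (70.5%) had a difference below 0, against 60.3% of all 34945 named probe sets. At an unadjusted p under 0.05 there were 8 (9.09%, against 10.8% of all named), and none passed over all probe sets. Of 24 genes with several probe sets, 12 had the same sign in all. The groups did not overlap in 4 probe sets (4.55%, against 6.37% of all named), each lower in E2f3-deleted arrays. These were that of Mdm2, 2 dimmer ones of Xiap and the dimmest of Bcl2l11.

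The second probe set of Xiap had log2 signals of 7.44, 7.54, 7.22 and 7.001 on E2f3-deleted arrays A, E, F and H, against 7.63, 7.56, 7.61 and 7.64 on control arrays B, C, D and G, a difference of −0.31 (limma, adjusted p = 0.436 over all probe sets). Another dim one also had −0.31, with signals from 3.21 to 3.49 against 3.50 to 3.76. For Xiap, then, the brightest probe set had a difference above 0 and these 2 below it. The dimmest probe set of Bcl2l11 had 4.76, 4.81, 4.97 and 4.80 on E2f3-deleted arrays A, E, F and H, against 5.09, 5.19, 5.16 and 5.10 on control arrays B, C, D and G (difference −0.30; limma, adjusted p = 0.301). The 4 brighter probe sets of that gene had values between −0.071 and 0.042.

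**Figure D4:**
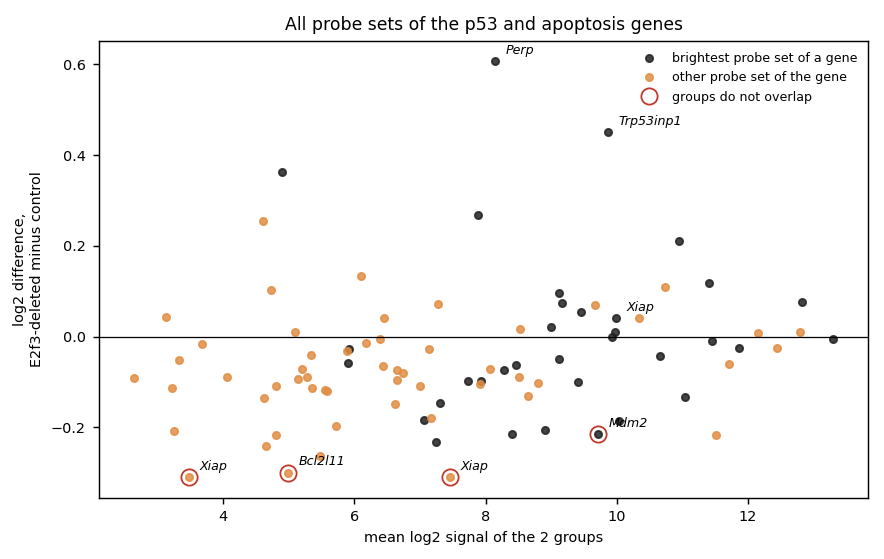
Log2 difference (E2f3-deleted minus control, y axis) against the mean log2 signal (x axis) for the 88 probe sets of 34 genes. Black points are the brightest probe set of each gene, orange points the others, and red rings mark the 4 probe sets whose groups do not overlap, which are all below 0 and of which that of Mdm2 alone is a brightest probe set.

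Other genes of the pathway were taken as 5 lists, and none of their genes passed over all genes tested. Of all genes tested, 58.7% had a difference below 0 and 41.3% above 0. Of 19 tested further targets of p53, 9 had a difference below 0 and 10 above 0 (median 0.016), with 1 (5.26%) at an unadjusted p under 0.05, against 14.2% of all genes. That was Gtse1, a microtubule protein of dividing cells, at −0.22 (SE 0.077, limma, adjusted p = 0.280), on arrays where the cell division list had 13 of 13 differences below 0. Cdkn1a, the p53 target that arrests the cell cycle, was named after its value was seen and had −0.092 (SE 0.18). Of 18 upstream kinases, cofactors and relatives of p53, 9 lay on each side of 0 (median −0.006), and 1 (5.56%) had an unadjusted p under 0.05. That was Trp63, the p53 relative of basal epithelium, which passed the filter only through the E2f3-deleted group (means of 6.67 and, in controls, 5.38), so its difference is not read as a result. Among 7 other BCL2 family genes 6 lay above 0 (median 0.093), and the 1 gene (14.3%) at that p, Bnip3, a mitochondrial protein known as a hypoxia target, was below 0 at −0.59. Of 12 other caspases and death proteins, 9 lay below 0 (median −0.044), Casp14 at −0.16 being the 1 (8.33%) at that p. Of 13 other inhibitors and antagonists, 9 lay below 0 (median −0.069), with 2 (15.4%) at that p, Faim at −0.22 and Traf1 at 0.38. Birc5 (survivin), which also acts in mitosis, was at −0.34 with a larger p.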

How the data were processed

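Total RNA of sorted macrophages was labelled as biotinylated cRNA for Affymetrix arrays, per the labels' protocols. For each of 8 arrays the authors deposited the log2 signal of 45101 probe sets. The submitters' processing notes name RMA, which corrects background, equalises the distributions of arrays by quantiles and summarises probes, and a global change in RNA would thus be hidden. The version is not given in the sources used here. Of the probe sets, 34945 had 1 gene symbol in the platform annotation, 932 several and 9160 none, besides 64 controls; 0 symbols needed updating through Entrez identifiers.

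Groups came from the titles, whose letters the groups do not share, so arrays were not paired. Genes with a mean under the 40th percentile were left out. Log2 differences (E2f3-deleted minus control) were tested two-sided, adjusting over 10916 genes, in R 4.3.3 with limma 3.58.1. SE is limma's. The test was run on simulated arrays in which 200 of 10916 genes differed. It found 67.2% of those shifted by 0.5 and 91% of those shifted by 1, with 11 false calls. Of the endothelial genes, Tie1, Emcn, Erg, Robo4 and Sox18 passed the filter only through the E2f3-deleted group. Their control means were 5.54 to 5.90, against 5.998 at the filter, so their differences are not read as results. On the measured arrays the 16 tested endothelial genes had differences from 0.52 to 1.82, and none passed an adjusted p of 0.05. The simulated shares therefore do not describe genes that spread so widely. Whether they hold for the other genes on the measured arrays was not tested. The genes, lists and tests were chosen with earlier results of these data known. The genes described in full were those at an unadjusted p under 0.05 or with non-overlapping groups, filled up to 2 per class by p; Phlda3, Gadd45a, Mcl1, Casp1 and Xiap were added after their values were seen. Up to 3 genes with the smallest p were named per further list. Promoter motifs are matches of letters in RefSeq windows.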

Additional observations from a re-analysis of the deposited data

Results flagged for a closer look

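In 4 of 68 sets of 4 arrays (34 genes, 2 groups), 1 array lay far from the other 3 relative to the range of its group, where chance marks about 1 set in 20. The gap was 0.902 of the range for Gadd45a in E2f3-deleted macrophages, where replicate H had a log2 signal of 7.08 and the other 3 had 4.26 to 4.54. For Casp1 it was 0.947, with 11.73 on replicate H and 10.80 to 10.85 on the other 3 E2f3-deleted arrays. Replicate H was also the array with the highest mast cell and fibroblast medians, and the part of these cells was not tested. For Ccng1 the gap was 0.879, with 11.24 on E2f3-deleted replicate F and 11.51 to 11.54 on the other 3. For Fadd it was 0.876, with 8.13 on control replicate B and 7.92 to 7.94 on the other 3 controls.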

How the results depend on the processing

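None of the 34 genes of the list with a probe set passed an adjusted p of 0.05 under any alternative run; the smallest was 0.165, for Bak1 without E2f3-deleted replicate E. Over all genes the count past the threshold ranged from 0 to 60 with each array left out (60 without E2f3-deleted replicate E, 14 without replicate H) and was 0 otherwise. An adjusted p under 0.1 was tried in the main fit only and also gave 0. With array weights the smallest adjusted p over all genes was 0.079 (limma). All genes at an unadjusted p under 0.05 numbered 1547 (14.2%), from 1009 (9.24%) without control replicate B to 1854 (17%) without replicate E, 944 of 7277 (13%) with the 60th percentile filter, 1851 with the endothelial covariate and 449 (4.11%) with groups set by scan file letter. In the list there were 2, and from 1 to 7 with each array left out. The share in the list exceeded that of all genes without replicate E (22.6%), with the 60th percentile filter (15.4%), with the scan letter groups (6.45%) and with the epithelial covariate (16.1%, against 15.9%), and lay below it under the other alternatives. The median of the list, −0.024, was −0.061 when all probe sets of a gene were averaged and 0.023 with the endothelial median as a covariate, and ranged from −0.036 to −0.0095 with arrays left out; the cause was not tested. Of 550 single-gene differences under these alternatives (the epithelial covariate apart), 503 kept their sign. With the endothelial covariate Casp1 and Trp53inp1 were 0.71 and 0.83. Both were highest on replicate H, as was Phlda3, which was 0.24 with that covariate, and the cause was not tested. The scan letter groups left Mdm2 at −0.20 and moved Bcl2l1 to −0.018, Phlda3 to 0.0066, Bak1 to −0.15, Casp9 to −0.088, Casp8 to −0.064 and Bid to −0.37. No paired analysis was possible because the groups share no replicate letters. The number of arrays limits precision: intervals reached a median of 0.21 to each side.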

Other observations

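Among the further pathway genes, chosen here after their values were seen, Bnip3 had log2 signals of 11.02, 11.72, 11.65 and 11.62 on E2f3-deleted arrays A, E, F and H, against 11.77, 12.08, 12.44 and 12.08 on control arrays B, C, D and G. The groups did not overlap, with a fold of 0.666 (limma, adjusted p = 0.259). Casp12, a caspase of the endoplasmic reticulum in mice, was at 11.09 on replicate H and at 7.78 to 8.48 on replicates A, E and F, against 7.22 to 8.11 in controls. Trp63 had 5.999, 6.24, 6.84 and 7.59 on E2f3-deleted arrays A, E, F and H, against 5.47, 5.19, 6.11 and 4.76 on control arrays B, C, D and G, overlapping only through control replicate D; 3 of its 4 control values lay under the filter. Traf1, a signalling adaptor induced by NF-kappaB, was from 7.24 to 7.30 on replicates A, E and F and at 7.76 on replicate H, against 6.75 to 7.30 in controls.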
